A study of Mus musculus with 66 samples.

Results

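The DEAD and DEAH box proteins are RNA helicases named after letters of a conserved motif in their helicase core. They use ATP to open RNA duplexes or to strip proteins from RNA, and each tends to serve a defined step: assembly of ribosomal subunits in the nucleolus, splicing, mRNA export, translation or the sensing of viral RNA. In the small intestine, ribosome assembly is most active in the dividing cells of the crypt. The members were taken as every transcript whose gene symbol starts with Ddx or Dhx followed by a digit. This gave 58 transcripts of 52 genes (36 Ddx and 16 Dhx), of 9481 transcripts of 8978 genes in the expression table.

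The data came from mouse small intestinal organoids carrying a GFP and diphtheria toxin receptor cassette at the Lgr5 locus. ENR medium holds EGF, Noggin and R-Spondin. CV is ENR medium with 3 uM CHIR99021, which raises Wnt signalling, and 1 mM valproic acid, which acts on Notch signalling and also inhibits histone deacetylases. EN is the medium without R-Spondin. Each culture had 4 RNA libraries, 4 ATAC libraries (open chromatin) and 3 libraries for each of the histone marks H3K27ac, H3K4me3 and H3K27me3. CV cultures were exposed for longer than EN cultures, so medium and time cannot be told apart. The labels do not say that the libraries of a culture came from separate animals, so p-values measure the spread between these libraries.

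The RNA libraries held between 5630977 and 8859757 expected counts outside the spike-ins. The cultures differed in their marker RNAs. The summed level of 5 stem cell markers was 236 to 274 TPM (a level per transcript length, as a share of all transcripts) in CV, 912 to 996 in ENR and 16.6 to 18.4 in EN. The gap between CV and ENR lay mainly in Olfm4 (4.56 to 13.3 TPM in CV and 654 to 734 in ENR), while Smoc2 (174 to 195 and 183 to 193) and Axin2 (25.7 to 29.9 and 27.9 to 31.3) overlapped, and Lgr5 was 29.3 to 33.0 and 38.7 to 42.3. The sum of 4 proliferation markers was 682 to 717 TPM in CV, 718 to 745 in ENR and 161 to 172 in EN, and that of 4 enterocyte markers was 841 to 890, 624 to 692 and 1960 to 2125. Muc2, the goblet cell mucin, lay between 0.603 and 0.784 TPM in CV and between 120 and 136 in EN, and 2 enteroendocrine markers summed to 28.3 to 49.0 and 1105 to 1181. The tuft cell marker Dclk1 reached 0.135 TPM in CV and 7.20 in EN. Of the Paneth markers, Lyz1 was 3099 to 3401 TPM in CV and 1066 to 1250 in EN, whereas Defa6 was 1200 to 1390 and 1591 to 2114. The 3 listed markers of non-epithelial cells summed to at most 3.54 and 20.7. These cell type levels moved with the cultures, and their part in the results below was not tested. In such bulk libraries, fewer cells of a type and less RNA per cell cannot be told apart.

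Most helicases were lower in EN than in CV. Together the members took 0.503 to 0.517% of expected counts in CV, 0.519 to 0.527% in ENR and 0.292 to 0.315% in EN. Of 57 members tested, 32 were lower in EN and 6 were higher (edgeR quasi-likelihood test, adjusted p under 0.01). Over all 9288 transcripts 76.4% were called in this comparison, 41.2% as lower and 35.2% as higher. The members' median log2 fold change was -0.59, beside -0.08 for all transcripts. Against ENR, 39 members were lower in EN and 2 were higher, where 72.7% of all transcripts were called, 37.2% as lower and 35.5% as higher. The members' median was -0.62, beside -0.01. Between CV and ENR, 10 members were higher in CV and 15 lower, beside 60.0% of all transcripts called, 30.2% as higher and 29.8% as lower. The medians were -0.07 for members and -0.01 for all. These 3 comparisons share libraries.

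The direction depends on what the libraries are scaled to. On the deposited mRNA copies, the members' median was 0.15 in EN minus CV, with 14 members higher and 7 lower, but the median of all transcripts was 0.62. With library sizes set by the spike-ins, the medians were -1.01 and -0.49. Both scales use the spike-ins, yet they moved the median of all transcripts in opposite directions. Total copies per library ran from 645250 to 870829 in CV, 498750 to 1577575 in ENR and 1554679 to 2546655 in EN. Counting the 54 members with more than 6 counts in some library, the distance of their median from that of all transcripts was -0.51 by the main scaling, -0.51 by the spike-ins, -0.45 by copies and -0.53 by TPM. Values below are relative to the main scaling.

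**Figure D1:**
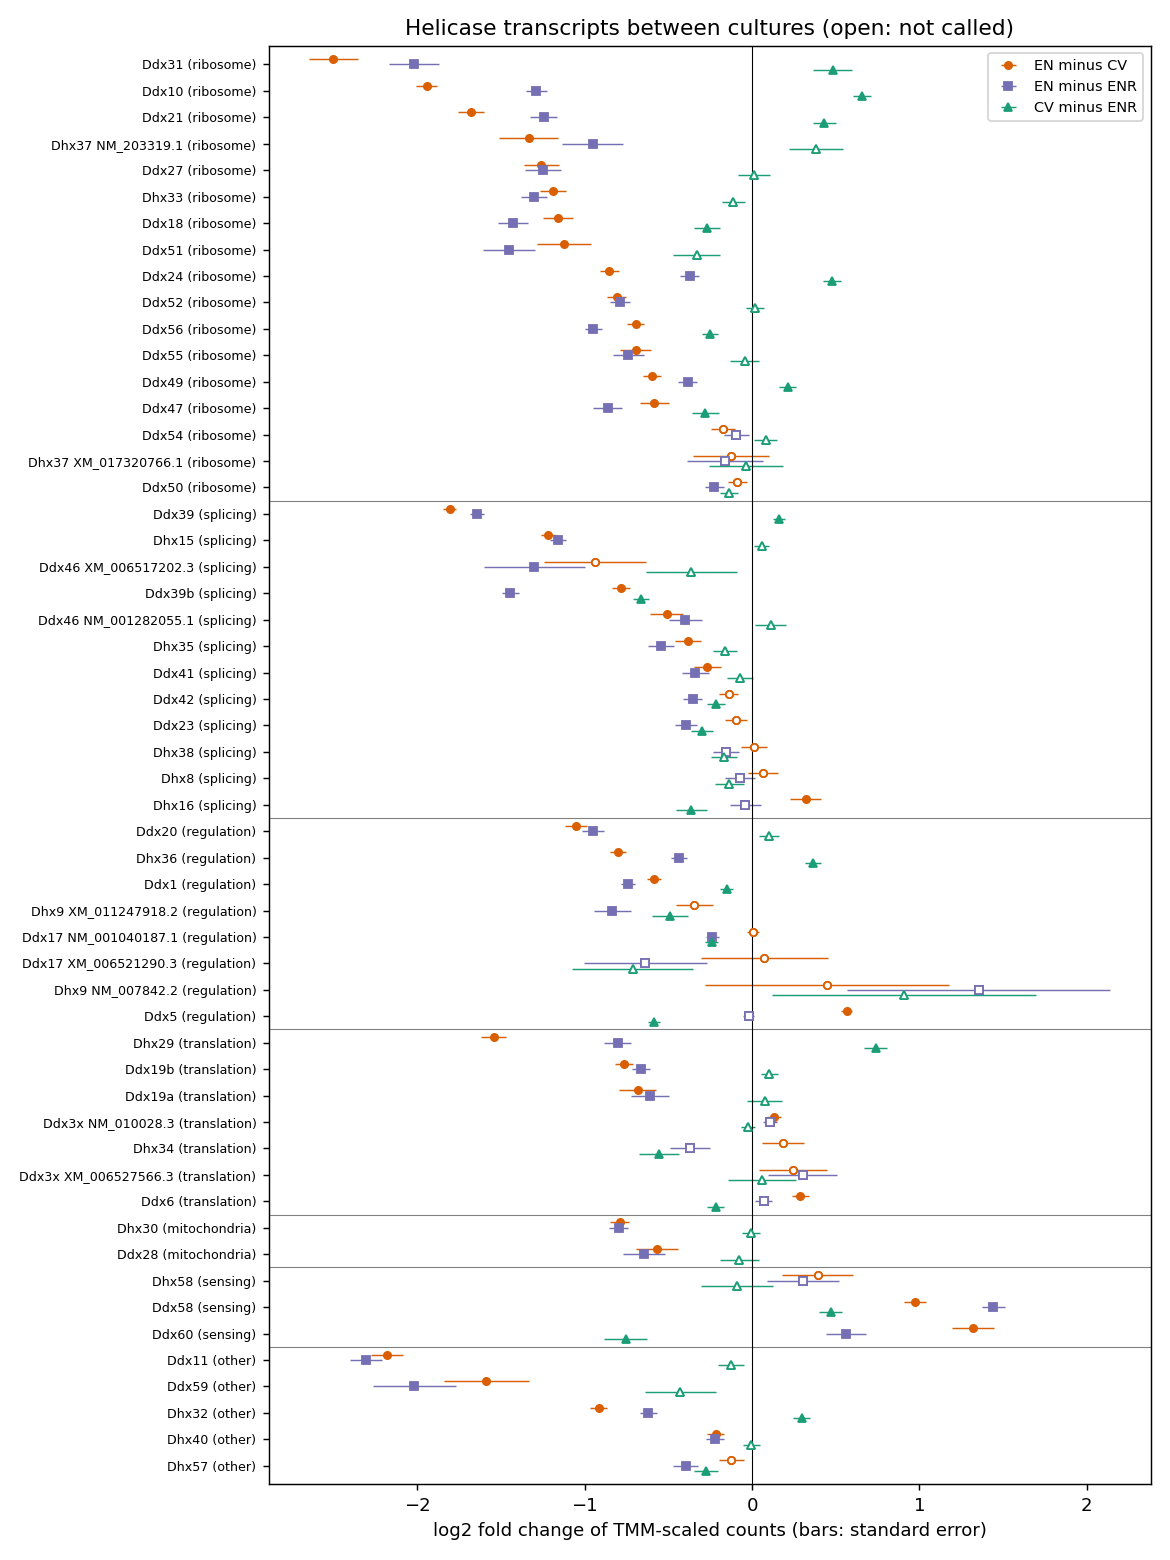
Log2 fold change (x axis, with standard error) of 54 helicase transcripts in 3 comparisons, grouped by role; open symbols did not pass an adjusted p of 0.01. All 17 ribosome assembly transcripts lie below 0 in EN minus CV and 2 of 3 sensors were called higher. On the deposited copies scale the median of these 54 in EN minus CV was above 0, at 0.17, beside 0.62 for all transcripts.

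Most helicases of ribosome assembly were lower in EN by the main scaling. In EN minus CV 14 of their 17 transcripts fell, none rose, and their median was -0.85. Over all transcripts 41.2% fell and 35.2% rose, with a median of -0.08. On the copies scale the median of these 17 was -0.10 beside 0.62 for all transcripts. In EN minus ENR 15 of 17 fell, where 37.2% of all transcripts fell. The median of these 17, -0.95, became 0.11 on the copies scale, beside 0.88 for all transcripts. Ddx31, which acts in large subunit assembly, held 26.8, 31.0, 27.4 and 28.2 CPM (counts as a share of the scaled library size) in CV, 18.6, 24.2, 20.7 and 18.1 in ENR, and 6.57, 4.28, 4.99 and 3.89 in EN. No library of one culture overlapped another. The log2 fold change was -2.50 (SE 0.14, adjusted p = 2.17e-10) in EN minus CV and -2.02 in EN minus ENR. Ddx10, of small subunit pre-rRNA processing, held 105, 108, 103 and 99.9 CPM in CV, 67.9, 64.3, 67.1 and 64.4 in ENR and 30.8, 24.8, 25.3 and 26.2 in EN. Its 3 cultures were also apart, with log2 fold changes of -1.94 in EN minus CV and 0.66 in CV minus ENR.

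Ddx21, a nucleolar helicase that couples rRNA transcription and processing, differed from its paralog Ddx50. Ddx21 held 184, 200, 199 and 215 CPM in CV, 135, 152, 144 and 159 in ENR and 62.0, 59.1, 54.2 and 72.7 in EN. Every EN library lay below every other, and the log2 fold change in EN minus CV was -1.68 (SE 0.078, adjusted p = 1.51e-11). Ddx50 held 96.2, 108, 100 and 93.9 CPM in CV, 110, 114, 109 and 106 in ENR and 87.6, 89.9, 96.0 and 101 in EN. The CV and EN libraries of Ddx50 overlapped, with a log2 fold change of -0.09 (SE 0.055, adjusted p = 0.157). The difference between the paralogs' changes was not tested. Ddx54, another large subunit factor, was called in no comparison, with 87.7, 96.2, 102 and 110 CPM in CV, 95.0, 89.3, 92.2 and 97.5 in ENR and 90.7, 92.5, 76.3 and 91.3 in EN.

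The other ribosome assembly members that fell in EN minus CV were Ddx27 (-1.26 on the log2 scale), Dhx33 (-1.19), Ddx18 (-1.16), Ddx51 (-1.12), Ddx24 (-0.85), Ddx52 (-0.81), Ddx56 (-0.70), Ddx55 (-0.69), Ddx49 (-0.60) and Ddx47 (-0.58). Dhx37, which releases the U3 snoRNA, was listed as 2 transcripts. Transcript NM_203319.1 of Dhx37 held 16.7, 21.0, 18.6 and 18.8 CPM in CV, 16.5, 8.67, 16.6 and 15.4 in ENR and 8.71, 7.07, 7.31 and 6.48 in EN, with a log2 fold change of -1.33 in EN minus CV. Transcript XM_017320766.1 held 4.22 to 5.26 CPM in CV, 3.27 to 5.31 in ENR and 2.81 to 5.35 in EN, and was called in no comparison.

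Splicing and export helicases were divided. In EN minus CV 6 of 12 transcripts fell and 1 rose, where 41.2% of all transcripts fell and 35.2% rose. The median of the 12 was -0.32, beside -0.08 for all transcripts. On the copies scale it became 0.42, below the 0.62 of all transcripts. Ddx39, a UAP56-like helicase of mRNA export, held 188, 176, 184 and 182 CPM in CV, 159, 169, 161 and 164 in ENR and 52.1, 52.9, 54.0 and 50.0 in EN. Its log2 fold change was -1.81 (SE 0.040, adjusted p = 2.51e-15) in EN minus CV and 0.16 in CV minus ENR. Ddx39b, which is UAP56 itself, held 99.2, 106, 94.1 and 106 CPM in CV, 171, 155, 162 and 153 in ENR and 60.3, 60.4, 57.3 and 58.2 in EN. Both were lowest in EN, but Ddx39b was lower in CV than in ENR, by -0.66 on the log2 scale (adjusted p = 1.18e-08), whereas Ddx39 was slightly higher.

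Dhx15, the Prp43 homolog that takes the spliceosome apart, held 282, 292, 291 and 269 CPM in CV, 270, 286, 282 and 253 in ENR and 118, 126, 126 and 119 in EN. Only EN stood apart, at -1.22 against CV (SE 0.047, adjusted p = 1.45e-12). Helicases that act on the assembled spliceosome gave smaller values. Dhx8, the Prp22 homolog, held 19.5, 22.4, 22.7 and 22.2 CPM in CV, 23.4, 24.4, 23.8 and 23.8 in ENR and 24.4, 23.1, 18.6 and 24.3 in EN. Dhx38, the Prp16 homolog, held 51.5, 49.1, 49.4 and 53.4 CPM in CV, 57.2, 51.5, 63.0 and 56.5 in ENR and 52.3, 49.7, 44.1 and 58.2 in EN. Neither was called in any comparison. Dhx16, the Prp2 homolog, rose by 0.32 on the log2 scale in EN minus CV, and its fitted value was -0.09 with spike-in library sizes. Ddx41 (-0.27), Dhx35 (-0.38) and the transcript NM_001282055.1 of Ddx46 (-0.51) fell, while Ddx42 (-0.14) and Ddx23 (-0.09) had values that did not pass. The second Ddx46 transcript, XM_006517202.3, held 24.1, 38.8, 17.0 and 19.4 CPM in CV, 26.8, 33.2, 36.0 and 31.7 in ENR and 16.5, 8.56, 5.71 and 19.1 in EN, a wide spread within cultures. Summed over both transcripts, Ddx46 changed by -0.61 (adjusted p = 6.60e-12).

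Ddx5 and Ddx17 are paralogs that coregulate transcription and splicing. Ddx5 had the highest mean level per length of all members, at 288 TPM, ahead of the main Ddx3x transcript (179), Ddx1 (124), Ddx39 (122) and Dhx15 (114). It held 522, 523, 522 and 513 CPM in CV, 768, 798, 775 and 779 in ENR and 739, 785, 740 and 813 in EN. CV was apart from both other cultures, with a log2 fold change of 0.56 (SE 0.035, adjusted p = 4.87e-10) in EN minus CV. EN and ENR overlapped at -0.02, which became 0.91 on the copies scale, beside 0.88 for all transcripts. The main transcript of Ddx17, NM_001040187.1, held 193, 198, 187 and 194 CPM in CV, 233, 213, 230 and 236 in ENR and 195, 189, 194 and 197 in EN. Here ENR was apart, and EN minus CV was 0.01 (adjusted p = 0.899). Its minor transcript XM_006521290.3 held 7.14, 4.94, 13.0 and 27.5 CPM in CV, 20.6, 24.9, 19.3 and 22.4 in ENR and 15.8, 12.8, 9.63 and 17.0 in EN, and was called in no comparison.

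Ddx1, of the tRNA ligase complex, held 217, 220, 220 and 207 CPM in CV, 240, 241, 244 and 236 in ENR and 150, 152, 133 and 142 in EN, and fell by 0.59 on the log2 scale in EN minus CV. Ddx20, the Gemin3 subunit of the SMN complex, and Dhx36, which resolves G-quadruplexes, fell by 1.05 and 0.80. Dhx9, or RNA helicase A, was listed as 2 transcripts, and how reads were divided between them was not tested. Its NM_007842.2 model held 11.5 to 18.0 CPM in CV, 0 in 2 ENR libraries and up to 18.2 in the others, and 4.02, 14.8, 24.8 and 32.1 in EN. After summing both models, Dhx9 changed by -0.19 in EN minus CV (adjusted p = 0.00652) and by -0.53 in EN minus ENR.

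**Figure D2:**
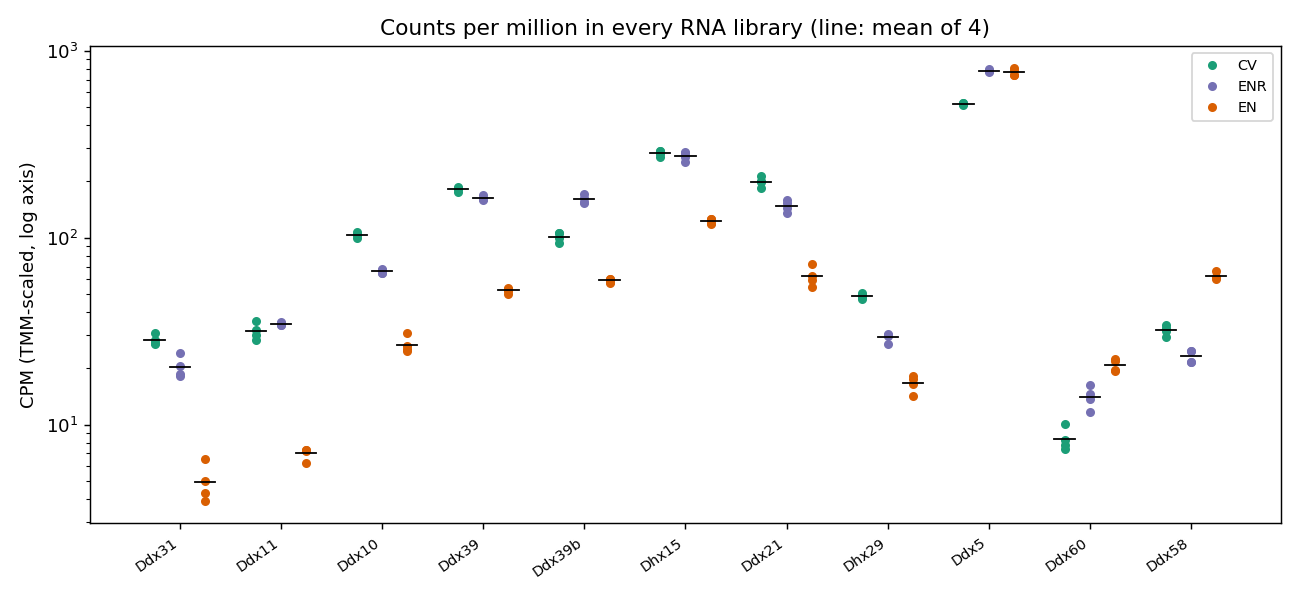
CPM (log axis) of 11 helicase transcripts in each of 12 RNA libraries, coloured by culture, with a line at the mean of 4. EN lies lowest for the first 8; Ddx5 is lowest in CV, and Ddx60 and Ddx58 are highest in EN, with Ddx58 at 60.4 to 66.4 CPM.

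Among helicases of translation and mRNA turnover, Ddx3x and Ddx6 had values above 0 in EN minus CV by the main scaling, but below 0 with spike-in library sizes. Ddx3x, the X-linked factor of translation initiation, held 516, 549, 565 and 523 CPM in CV, 538, 559, 542 and 552 in ENR and 587, 587, 552 and 631 in EN for its transcript NM_010028.3. The libraries of EN and CV overlapped, and the log2 fold change of 0.13 (adjusted p = 0.00915) was -0.18 on log2(TPM + 1) and -0.28 with spike-in library sizes. The minor Ddx3x transcript XM_006527566.3 lay between 12.5 and 25.5 CPM in all 12 libraries and was called in no comparison. The Y-linked paralog Ddx3y had at most 4 counts in any library for one transcript and none for the other. Ddx6, of P-bodies and mRNA decay, held 92.7, 94.4, 91.5 and 85.2 CPM in CV, 103, 108, 101 and 111 in ENR and 116, 116, 103 and 109 in EN, with a log2 fold change of 0.29 that was -0.12 with spike-in library sizes. Dhx29, which helps the small subunit scan structured leaders, held 48.1, 50.7, 46.9 and 49.5 CPM in CV, 30.1, 30.4, 29.8 and 26.8 in ENR and 18.2, 14.1, 16.4 and 17.6 in EN. The 3 cultures were apart, with log2 fold changes of -1.54 in EN minus CV and 0.74 in CV minus ENR.

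The nuclear pore helicases Ddx19a and Ddx19b moved by like amounts. Ddx19a held 22.8 to 24.8 CPM in CV, 21.0 to 25.2 in ENR and 14.8 ± 2.72 (SD, n = 4) in EN, and Ddx19b held 75.2 to 79.2, 69.9 to 74.0 and 41.6 to 49.2. Their log2 fold changes in EN minus CV were -0.68 and -0.77. These near-identical paralogs can share reads. Dhx34, of nonsense-mediated decay, had 0.19 in EN minus CV, which did not pass, and fell by 0.56 in CV minus ENR. The mitochondrial members Ddx28 and Dhx30 fell by 0.57 and 0.79 in EN minus CV.

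Of the 3 members grouped here as RNA sensors, with 1 role given to each member, 2 rose in EN and Dhx58 did not pass. Ddx58, which is RIG-I, held 34.1, 32.7, 29.3 and 31.7 CPM in CV, 21.5, 24.7, 24.8 and 21.6 in ENR and 60.4, 61.9, 61.9 and 66.4 in EN. The log2 fold change was 0.97 (SE 0.065, adjusted p = 1.31e-09) in EN minus CV and 1.44 in EN minus ENR. Ddx60, an interferon-induced antiviral helicase, held 8.22, 7.74, 10.1 and 7.35 CPM in CV, 13.7, 16.4, 11.7 and 14.6 in ENR and 19.6, 19.3, 22.5 and 21.9 in EN. By the main scaling EN was highest for both genes, whereas CV and ENR stood in opposite order. The median of the 3 grouped sensors in EN minus ENR was 0.56 by that scaling. With spike-in library sizes it was 0.046, beside -0.52 for all transcripts. In EN minus CV their medians were 0.97 by the main scaling and 0.55 with spike-in library sizes, beside -0.49 for all transcripts in the latter. Dhx58, or LGP2, held 6.20, 4.54, 4.90 and 6.02 CPM in CV, 3.71, 7.69, 7.14 and 4.78 in ENR and 6.43, 7.28, 7.67 and 7.20 in EN, and was called in no comparison (0.39 in EN minus CV, adjusted p = 0.099). In a list of 21 interferon response genes, 15 were tested and 8 rose and 2 fell in EN minus CV, with a median of 0.59. Over all transcripts 35.2% rose and 41.2% fell in that comparison, with a median of -0.08. Ifit3 rose by 1.97 and Irf7 by 1.33, while Bst2 had -3.57 and Oas1a -1.10.

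Of the remaining members, Ddx11, an iron-sulphur DNA helicase of sister chromatid cohesion, held 32.2, 30.3, 28.2 and 36.0 CPM in CV, 34.2, 34.0, 34.8 and 35.5 in ENR and 7.24, 7.28, 7.31 and 6.19 in EN. EN was apart from both others, at -2.18 against CV (SE 0.096, adjusted p = 7.37e-12). Ddx59 fell by 1.59, Dhx32 by 0.92 and Dhx40 by 0.22 in EN minus CV, and Dhx57 had -0.12, which did not pass. The germ cell helicase Ddx4 had at most 6 counts in any library and Ddx43 at most 3, with 0 in all 4 EN libraries. Counts of this size lie near the floor of 3 counts, so no fold is given.

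Other RNA helicases and partners gave mixed counts. Over all transcripts tested in EN minus CV, 35.2% rose and 41.2% fell, with a median of -0.08. Of 19 related helicases outside the name rule, 6 rose and 9 fell, with a median of 0.04, near that background. The translation factor Eif4a1 fell by 1.03 and its paralog Eif4a2 rose by 0.86, and Mov10 rose by 3.06. Of 43 tested transcripts of helicase cofactors, 10 rose and 19 fell, with a median of -0.27. The Ddx20 partners Gemin4, Gemin5 and Gemin6 fell by 2.24, 2.42 and 3.09 and Smn1 fell by 1.71, while Gemin7 rose by 0.61, and Gemin2 (-0.14) and Gemin8 (-0.34) did not pass. Among cofactors named Gpatch, Gpatch4 fell by 3.23 and Gpatch1 fell by 0.45, while Gpatch8 rose by 1.66 and Gpatch2 by 1.19. Other G-patch genes and related cofactors mostly fell where called. Pinx1, Utp14a and Rbm17 fell by 2.47, 2.27 and 1.17 and Nkrf also fell, while Rbm5 rose by 0.41. Tfip11 (0.23), Cmtr1 (0.05), Zgpat (0.0003), Sugp1 (-0.06) and Gpkow (-0.15) did not pass.

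Chromatin was compared at 55 regions lying within 500 bp of an annotated start of 50 of the 52 genes, on log2(score + 1). ATAC signal was higher in EN than in CV at 9 of the 55 (19.1% of regions at all annotated starts and 19.6% of all regions were called higher) and lower at 6 (15.5% and 15.6%). Under quantile normalization 4 were higher and 13 lower. The lowest change was at Dhx33 (mm9 chr11:70816737-70818335), with scores of 60, 58, 68 and 87 in CV and 33, 38, 34 and 33 in EN, a difference of -0.95 (limma, adjusted p = 9.92e-05). The highest was at Ddx60 (mm9 chr8:64406474-64407337), with 16, 14, 16 and 7 in CV and 29, 26, 21 and 23 in EN, a difference of 0.91 (adjusted p = 0.00581). ATAC and RNA could differ in direction: Dhx29 and Ddx10 had ATAC differences of 0.66 and 0.46 and RNA that fell, and Ddx58 had -0.46 and RNA that rose.

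H3K27ac, a mark of active promoters and enhancers, was higher in EN at 10 of 55 regions and lower at none, where 16.9% of regions at all starts were called higher and 3.73% lower (5.07% and 1.96% of all regions). The share of members is near that background. In this limma fit 16 were higher and 3 lower at an unadjusted p under 0.05. Without the trended variance, or with a replicate block, 0 of the 55 were called, and under quantile normalization 3 were higher and 4 lower, with Dhx38 at -0.066. The block cannot decide whether these calls hold, since replicate numbers were only partly shared between cultures and little was left to estimate the spread. Ddx23 had the largest difference, 1.52 (adjusted p = 0.000674), with scores of 33, 54 and 93 in CV, 98, 88 and 115 in ENR and 139, 156 and 189 in EN. Ddx17 (1.40), Ddx52 (1.39), Ddx5 (1.28), Dhx35 (1.20), Ddx3x (1.16), Ddx6 (1.12), Ddx50 (1.10), Ddx54 (1.03) and Dhx38 (0.63) followed. At all 10, the ENR mean also lay above the CV mean. The RNA of these 10 genes had a median log2 fold change of -0.04 in EN minus CV, beside -0.61 for the 49 genes compared. Across those 49 genes, H3K27ac and RNA differences had a Pearson r of 0.47 and a Spearman rho of 0.51. For H3K4me3 these were 0.39 and 0.44, for ATAC 0.13 and 0.13, and for H3K27me3 0.093 and 0.10. All points share the same libraries.

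**Figure D3:**
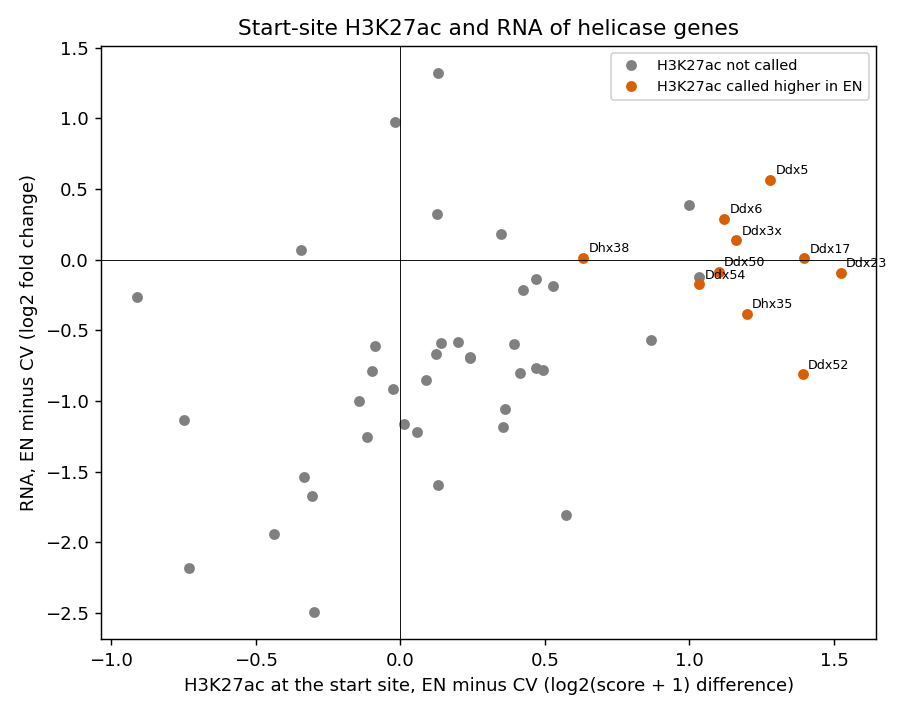
Each point is 1 of 49 helicase genes, by the EN minus CV difference of H3K27ac at its start (x axis, log2(score + 1)) and of its RNA (y axis, log2 fold change, transcripts summed). The 10 genes called higher for H3K27ac lie to the right, with RNA from -0.81 (Ddx52) to 0.57 (Ddx5).

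H3K4me3, a mark of active starts, was higher in EN at Ddx3x (134, 130 and 125 in CV and 223, 233 and 193 in EN) and Ddx6 (126, 103 and 122 in CV and 160, 171 and 161 in EN), 2 of 55 regions, and lower at none; 4.44% of regions at all starts were called higher and 5.61% lower, and 2.75% and 2.15% of all regions. At an unadjusted p under 0.05, 9 were higher and 1 lower in the same limma fit. With a replicate block, which has the same limit here, 0 were called, and under quantile normalization 0 were higher and 3 lower, with Ddx6 at -0.035. H3K27me3, the Polycomb mark, was called at none of the 55 regions, where 0.281% of regions at all starts were called higher and 0.0639% lower (0.140% and 0.388% of all regions). In that limma fit 0 were higher and 0 lower at an unadjusted p under 0.05. Both regions at Ddx43 held the highest H3K27me3 scores of the members, with means over the 9 libraries of 26.3 and 29.7, and the lowest H3K4me3 scores, 4.44 and 2.78.

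Promoter windows from RefSeq (GRCm38.p6, 250 bases before to 50 after a start) matched 46 of the 52 genes; Ddx11, Ddx23, Ddx39, Ddx6, Dhx38 and Dhx58 had no entry. The letters CCGGAAG, as bound by ETS factors, occurred on either strand in 19 of 46 genes (41.3%), beside 9.93% of all genes in the reference and 21.6% of those in the expression table. CACGTG, an E-box, occurred in 13.0% of members and 12.2% of genes in the table, GATGGCG in 6.52% and 8.10%, CTCGCGA in 2.17% and 4.78%, TATAAA in 13.0% and 9.35%, and CCAAT in 47.8% and 42.9%. A match is a description of letters and not a binding site. Most of the 19 genes with CCGGAAG were not called for H3K27ac. Of the genes called, Dhx35 also had these letters, Ddx52 and Ddx3x did not, and Ddx23, Ddx6 and Dhx38 had no window. A link between the letters and H3K27ac was not tested. The stretches below show the match, in capitals, upstream of 4 chosen genes whose start region was called for H3K27ac. They also show the E-box of Dhx33, whose region had the largest ATAC fall. Windows and regions were joined by gene only, since their builds differ. On the minus strand of chromosomes 11, 15 and 10 lie Ddx5 (chr11:106788985-106789051), Ddx17 (chr15:79546934-79546991), Ddx50 (chr10:62651219-62651285) and Dhx33 (chr11:71004433-71004499), and on the plus strand Ddx54 (chr5:120613063-120613129). In Ddx5 and Ddx54 the match is on the opposite strand.
Ddx5: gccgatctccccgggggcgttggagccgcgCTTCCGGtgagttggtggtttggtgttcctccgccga
Ddx17: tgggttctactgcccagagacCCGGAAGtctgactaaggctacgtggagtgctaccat
Ddx50: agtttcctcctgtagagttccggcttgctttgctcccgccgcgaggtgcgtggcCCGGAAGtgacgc
Ddx54: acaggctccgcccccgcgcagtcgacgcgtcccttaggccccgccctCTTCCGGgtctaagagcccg
Dhx33: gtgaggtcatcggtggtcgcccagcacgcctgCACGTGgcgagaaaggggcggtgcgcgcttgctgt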

How the data were processed

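The authors quantified RNA with kallisto (0.43.0 per the labels) against an index limited to transcripts whose protein had been measured, and deposited expected counts, TPM and mRNA copies scaled by spike-ins. Chromatin tables hold deposited scores, normalized and rounded by the authors, over shared regions (mm9). How the scores were normalized is not given in the sources used here. The deposited raw counts of Hnf4g ChIP, with 1 library per culture, were not used here.

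Expected counts were rounded, those transcripts detected (any count over 0) by 4 or more of the 12 libraries were retained, and all libraries were fitted in 1 model with edgeR 4.0.16 (TMM, quasi-likelihood, Benjamini-Hochberg over all transcripts, threshold 0.01). Fold changes are log2. Scores were tested with limma 3.58.1 (trend, pseudocount 1, regions above 0 in at least 3 libraries, threshold 0.05). Both tests were also run on simulated data in which few transcripts or regions changed. Most transcripts were called in the real RNA, so that run does not bear on the choice of scaling. DESeq2 1.42.0 was an alternative, as were other scalings, filters and left-out libraries. Values in every library, or their range, were given for the 3 called members with the largest rise and fall per RNA comparison (mean of at least 5 CPM), the 5 highest by TPM, the sensors, paralog pairs, genes with several transcripts and members never called, and for the region with the largest rise and fall per dataset. The members, roles and gene lists were chosen with earlier results of these data known. Of 66 samples, 12 had no column and were not analysed, in addition to the Hnf4g ChIP libraries.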

Additional observations from a re-analysis of the deposited data

Results flagged for a closer look

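In groups of 4 libraries, 12 of the members' values had 1 library far from the other three by Dixon's test, among 162 RNA groups and 45 ATAC groups screened; chance alone marks about 5% of groups. In RNA, the lowest EN library had 6.19 CPM for Ddx11 (others 7.24 to 7.31) and 76.3 for Ddx54 (others 90.7 to 92.5). The lowest CV library had 513 CPM for Ddx5 (others 522 to 523), 42.0 for Dhx33 (others 47.3 to 47.8) and 19.5 for Dhx8 (others 22.2 to 22.7). The lowest ENR library had 113 CPM for Dhx36 (others 122 to 123), 8.67 for transcript NM_203319.1 of Dhx37 (others 15.4 to 16.6) and 3.27 for its transcript XM_017320766.1 (others 5.07 to 5.31), and the highest had 16.9 for Dhx34 (others 14.2 to 14.4). In ATAC, the lowest score was 184 for Dhx29 in EN (others 197 to 198) and 72 for Ddx17 in ENR (others 81 to 82), and the highest was 208 for Dhx38 in EN (others 184 to 188).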

How the results depend on the processing

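The RNA counts changed with the scaling. On copies, members called higher and lower were 14 and 7 in EN minus CV, 17 and 4 in EN minus ENR and 3 and 0 in CV minus ENR. The medians of all transcripts on copies were 0.62, 0.88 and 0.20 in these comparisons. With spike-in library sizes 2 were higher in EN minus CV, 1 in EN minus ENR, and 1 was higher and 4 lower in CV minus ENR. On log2(TPM + 1) 3 were higher in EN minus CV and 4 lower in CV minus ENR; with a pseudocount of 0.1 these were 3 and 3, and 1 was higher in EN minus ENR. Fitted directions turned on copies in EN minus CV for Ddx49 (0.18), Ddx46 NM_001282055.1 (0.24), Ddx19a (0.015), Dhx40 (0.56), Ddx47 (0.16), Ddx55 (0.027), Ddx56 (0.062), Ddx28 (0.15), Ddx1 (0.21), Ddx41 (0.51), Ddx50 (0.72), Dhx35 (0.34), in EN minus ENR for Ddx49 (0.61), Ddx17 NM_001040187.1 (0.76), Ddx46 NM_001282055.1 (0.62), Ddx5 (0.91), Ddx19a (0.36), Dhx40 (0.79), Ddx47 (0.11), Ddx55 (0.27), Ddx56 (0.0082), Dhx16 (0.98), Ddx28 (0.36), Ddx54 (0.93), Ddx42 (0.64), Ddx52 (0.19), Ddx1 (0.16), Ddx41 (0.66), Dhx8 (0.89), Ddx19b (0.34), Dhx29 (0.19), Dhx37 NM_203319.1 (0.11), Ddx20 (0.049), Dhx30 (0.20), Ddx50 (0.76), Ddx24 (0.64), Ddx23 (0.59), Dhx57 (0.60), Dhx38 (0.86), Dhx34 (0.58), Dhx36 (0.56), Dhx9 XM_011247918.2 (0.15), Dhx35 (0.47), Dhx37 XM_017320766.1 (0.52), Dhx32 (0.35), and in CV minus ENR for Ddx42 (0.0022), Dhx57 (0.034). With spike-in library sizes they turned in EN minus CV for Ddx3x NM_010028.3 (-0.28), Dhx16 (-0.091), Ddx6 (-0.12). On log2(TPM + 1) they turned in EN minus CV for Ddx17 NM_001040187.1 (-0.31), Ddx3x NM_010028.3 (-0.18), Dhx16 (-0.0099), Dhx38 (-0.30), Ddx6 (-0.031), and in CV minus ENR for Ddx1 (0.0045). With the pseudocount of 0.1 the values were Ddx17 NM_001040187.1 (-0.31), Ddx3x NM_010028.3 (-0.19), Dhx16 (-0.011), Dhx38 (-0.32), Ddx6 (-0.032), and Ddx1 (0.0046). The cause was not tested.

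Same-numbered RNA libraries did not deviate together (mean r 0.0132, beside -0.00437 for other pairs). This gave no sign of pairing by number, but cannot show that there is none. With a replicate block 5 members were higher and 32 lower in EN minus CV. ATAC libraries of the same number gave a mean r of 0.17 (0.0695 to 0.46), beside -0.0557 for other pairs. Whether the numbers mark libraries made together was not tested. For histone marks the block, added after seeing the data, left 0 member regions higher for H3K27ac and 0 for H3K4me3. Their replicate numbers were only partly shared between cultures, so the block left little to estimate the spread and cannot show whether those calls hold. Summing transcripts per gene, also added after seeing the data, gave 6 higher and 34 lower in EN minus CV.

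Under quantile normalization ATAC had 4 member regions higher and 13 lower, H3K27ac 3 and 4, and H3K4me3 0 and 3, with turned values at Dhx38 for H3K27ac (-0.066) and Ddx6 for H3K4me3 (-0.035). Without the trend, 3 ATAC regions were lower, 0 H3K27ac regions higher and 1 H3K4me3 region higher. At a threshold of 0.01, 3 ATAC regions were lower and 1 H3K4me3 region higher, and with a pseudocount of 5, 1 H3K4me3 region was lower. Leaving out 1 library gave 31 to 34 members lower and 4 to 6 higher in EN minus CV. It gave 0 to 1 H3K27ac regions lower (1 without CV replicate 3), 1 to 4 H3K4me3 regions higher (4 without EN replicate 1, and 1 without CV replicate 4, ENR replicate 2 or EN replicate 2) and 0 to 1 lower (1 without EN replicate 1). Every library with a column was already in the fits, so that alternative was not run. With 3 libraries per culture, histone differences that were not called may be below what these data can detect.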
